A study of Mus musculus with 13 samples.

Results

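Tumours that arose in mice carrying mutated ALK, a receptor tyrosine kinase, were set against normal mouse adrenal gland, gene by gene, on expression arrays. The members are the arrays whose genotype label is mutALK (n = 3) and the arrays of normal adrenal tissue (n = 3), 6 of the 13 arrays of a series on mouse models of neuroblastoma. All mice were of C57BL/6 background. The mutALK mice express mutated ALK specifically in the neural crest, the embryonic tissue that gives rise to the sympathetic nervous system and the adrenal medulla, and were followed until a tumour could be felt, after which the tumour was taken. The driver, the ALK mutation, the age of the animals and the site of each tumour are not given in the sources used here, and neither is it stated whether the adrenal glands came from littermates. The adrenal label is that of a normal control tissue. Tumours driven by MYCN (n = 4) and by both transgenes (double transgenic, n = 3) share the fit. Their spread therefore also enters the standard errors and p-values of mutALK against adrenal gland. Otherwise they serve below to show where mutALK tumours differ from other tumours of the series. Whether the replicates are separate animals is not stated, so p-values measure only the spread between these samples.

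Neuroblastoma arises from sympathoadrenal precursors, neural crest cells on their way to becoming sympathetic neurons or the chromaffin cells of the adrenal medulla, both of which make catecholamines. ALK is a receptor of the nervous system that signals through the RAS-MAPK and PI3K pathways and is mutated in part of human neuroblastomas. The adrenal gland is a mixed organ: most of it is steroid-making cortex, driven by the pituitary hormone ACTH, and a smaller inner part is medulla, so that a whole-gland comparison sets a tumour of one lineage against a tissue made mostly of another. In such bulk tissue, fewer cells of a type and less RNA per cell cannot be told apart.

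Values are log2 expression, so that 1 unit is 2-fold. Array values are listed in the order of replicates 1, 2 and 3. Differences are mutALK minus adrenal ± SE, and adjusted p-values are those of limma after Benjamini-Hochberg adjustment over all 18194 genes, called at 0.05. No detection calls were used, the lowest value on the arrays was 2.04, and where a gene lay near 3 in 1 group the difference may be only a lower bound.

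Several arrays stood apart from their group. The mean of the 23 measured liver genes was 10.28 in mutALK 1, 4.73 in mutALK 2 and 8.89 in mutALK 3, against 5.58, 10.47 and 5.45 in adrenal 1, 2 and 3, so that liver transcripts were high in 2 tumours and 1 adrenal array. Alb, serum albumin, was at 12.27, 5.50 and 12.39 in mutALK tumours, against 6.29, 13.31 and 5.87 in adrenal gland. Adrenal 2 was also higher than the other adrenal arrays in neuronal genes and in Umod, a kidney protein, which was at 3.45, 3.45 and 3.25 in mutALK tumours, against 3.21, 8.50 and 3.30 in adrenal gland. Fat cell genes were high in all 3 adrenal arrays, with list means of 7.27, 5.79 and 6.36 in the mutALK arrays, against 10.37, 11.66 and 9.99 in the adrenal arrays. Erythroid genes were highest in mutALK 2, with list means of 5.39, 8.47 and 6.01 in the mutALK arrays, against 5.37, 5.45 and 5.30 in the adrenal arrays. Of the genes whose range within a group exceeded 2 log2 units, adrenal 2 lay above the other adrenal arrays in 702 of 893 and mutALK 1 above the other mutALK arrays in 200 of 486. Xist, made by the inactive X chromosome of females, was at 12.49, 12.13 and 5.50 in mutALK tumours, against 12.67, 12.29 and 12.64 in adrenal gland, and the Y-linked Eif2s3y at 3.53, 3.30 and 8.40 in mutALK tumours, against 3.27, 3.30 and 3.07 in adrenal gland, so that mutALK 3 carried male and the other 5 arrays female marker levels. MutALK 2 and 3 share a number in their titles, whose meaning is not given. They carried female and male marker levels, so these 2 arrays came from different animals. Correlations across genes, which are not independent replicates, were 0.964 to 0.977 within the mutALK arrays and 0.938 to 0.991 within the adrenal arrays. What part these features have in the results was not tested, except where values without an array are given. With mutALK 1, mutALK 3 and adrenal 2 left out, mutALK 2 was the only tumour array, so such values are effect sizes of 1 array.

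**Figure D1:**
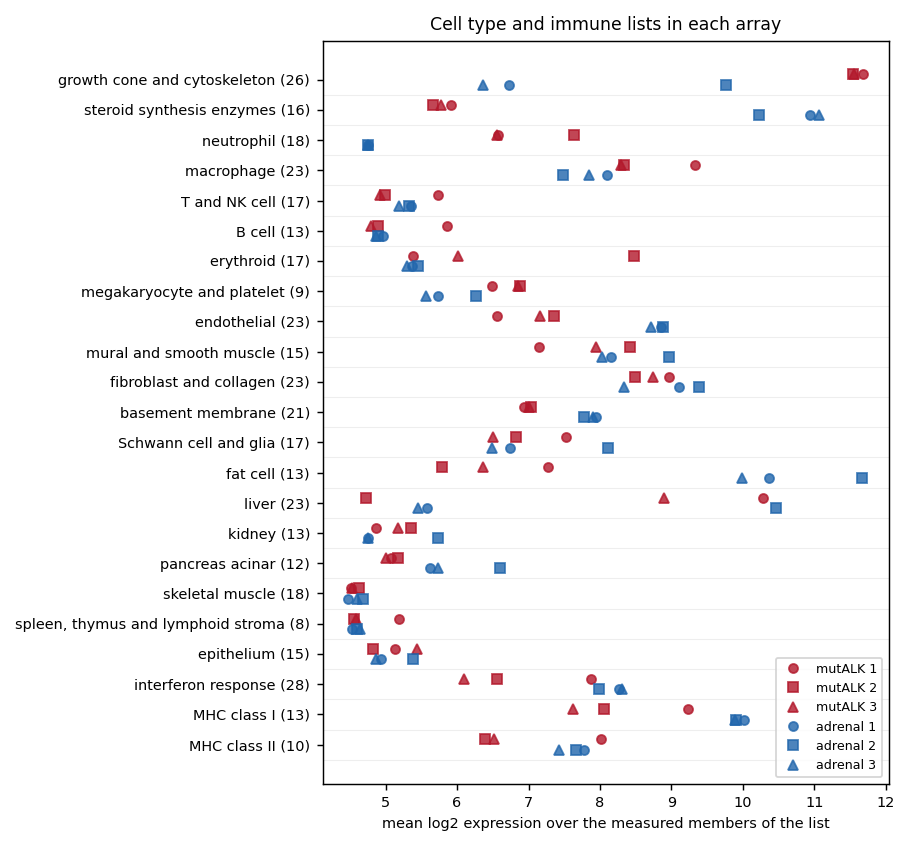
Mean log2 expression over the measured members of each list (number in brackets) in the 3 mutALK arrays (red, upper row of each list) and the 3 adrenal arrays (blue, lower row), with 1 marker shape for each replicate number. Liver genes averaged 10.28 and 8.89 in mutALK 1 and 3 and 10.47 in adrenal 2 and lay between 4.73 and 5.58 in the other 3 arrays, and steroid enzymes lay below 6 in every mutALK array and above 10 in every adrenal array.

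The labels were met by defining markers of both tissues. Neuronal genes were high in all mutALK arrays and steroid enzymes in all adrenal arrays, as described below. Medulla was present in the adrenal samples: Th, tyrosine hydroxylase, which starts catecholamine synthesis, was at 13.36, 13.24 and 11.34 in mutALK tumours, against 11.95, 11.63 and 10.85 in adrenal gland, and Pnmt, which turns noradrenaline into adrenaline, at 7.78, 7.78 and 8.06 in mutALK tumours, against 10.40, 8.70 and 9.55 in adrenal gland. Of 18194 genes, 7684 (42.2%) were called, 3871 higher (21.3%) and 3813 lower (21.0%) in mutALK tumours, and 4251 (23.4%) were called and at least 2-fold apart. Calls of at least 16-fold numbered 80 higher (0.440%) and 131 lower (0.720%). The groups did not overlap in 4372 genes higher (24.0%) and 4390 genes lower (24.1%) in the tumours. The median difference over all genes was 0.0, with the 5th percentile at -1.92 and the 95th at 1.91. These shares and this median are the background for every list below.

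**Figure D2:**
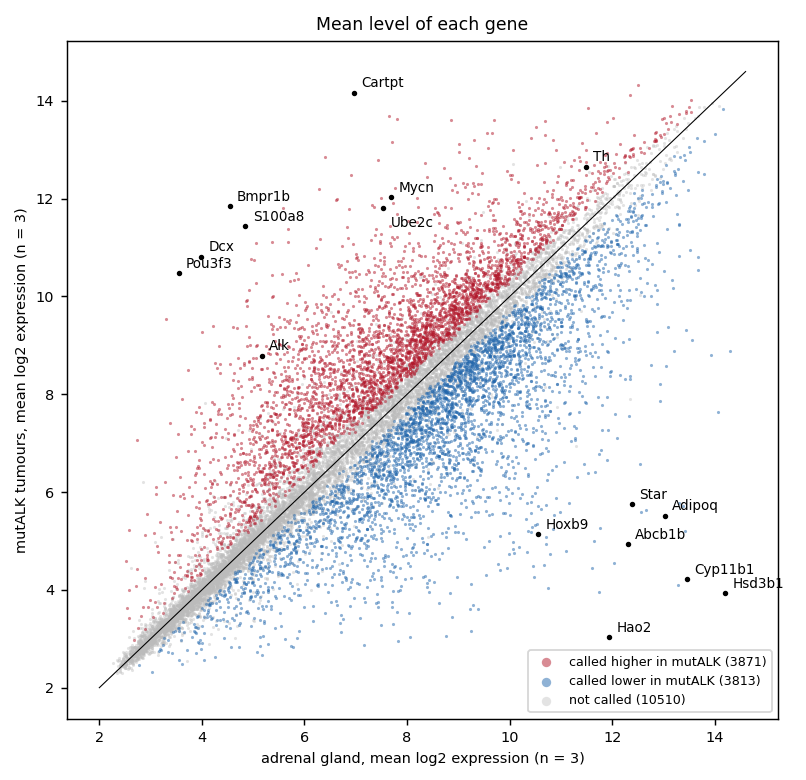
Each point is 1 of 18194 genes, with its mean log2 expression in mutALK tumours (n = 3) on the vertical axis and in adrenal gland (n = 3) on the horizontal axis, the diagonal marking equal levels. The 3871 genes called higher in mutALK are red, the 3813 called lower blue and the rest grey, and the lower right corner holds steroid and fat genes such as Hsd3b1, Cyp11b1, Star and Adipoq.

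The probe sets of Alk and Mycn, the 2 genes behind the transgenes of this series, were read first. Alk was at 8.93, 9.02 and 8.41 in mutALK tumours, against 5.08, 5.49 and 4.92 in adrenal gland, a difference of 3.62 ± 0.25 (adjusted p = 1.45e-06) with no overlap. Mycn was at 11.79, 11.91 and 12.41 in mutALK tumours, against 8.70, 7.43 and 6.92 in adrenal gland, a difference of 4.35 ± 0.55 (adjusted p = 7.74e-05). It is not known if the 2 probe sets detect transgene RNA, so the values do not check the labels. Alk was no higher in mutALK than in the other tumours, with a mean of 8.79 ± 0.33 in mutALK tumours (SD, n = 3), against 9.44 ± 0.34 in MYCN tumours (n = 4) and 9.11 ± 0.37 in double transgenic tumours (n = 3). The mutALK minus MYCN difference in Alk was -0.66 ± 0.24 by limma (adjusted p = 0.0557), and it missed the threshold. The Mycn probe set was lowest in MYCN tumours, with a mean of 12.03 ± 0.33 in mutALK tumours, against 6.35 ± 0.86 in MYCN tumours and 10.19 ± 0.64 in double transgenic tumours. The probe sets of Mycn disagreed in size, and averaged over its probe sets the difference was 1.71 in place of 4.35.

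The widest gaps between the groups ran upward in neural, homeobox and neutrophil genes and downward in steroid genes. The gap is the distance between the lowest array of the higher group and the highest array of the lower group. Cartpt, the precursor of the CART neuropeptides, was at 14.14, 14.20 and 14.17 in mutALK tumours, against 7.85, 5.94 and 7.09 in adrenal gland, a difference of 7.21 ± 0.44 (adjusted p = 7.95e-07). Its 3 tumour arrays lay within 0.06 of each other, while the adrenal arrays spread over 1.91. Bmpr1b, a type I BMP receptor, was at 12.14, 12.24 and 11.19 in mutALK tumours, against 4.34, 5.44 and 3.84 in adrenal gland, which is 159-fold higher. Creb5, a CREB family factor, was at 9.46, 10.56 and 10.39 in mutALK tumours, against 5.13, 5.28 and 4.37 in adrenal gland, a difference of 5.21 ± 0.36 (adjusted p = 1.45e-06). The 15 genes with the widest upward gap also held Pou3f3, Dcx, S100a8, S100a9, Nxf3, Sox11, Shox2, Rec114, Lcn2, Slc38a4, a transporter of neutral amino acids, Csrnp3 and Cd5l, a protein secreted by macrophages. Downward, the 15 held Hsd3b1, Cyp11b1, Cyp11a1, Hao2, Akr1cl, Mc2r, Akr1c18, Star, Efhd1, Klhdc8a, Abcb1b, Mgarp, Ecrg4, Mrap and Akr1d1. Ecrg4, a secreted peptide precursor, was at 4.70, 4.80 and 4.69 in mutALK tumours, against 11.08, 10.30 and 10.97 in adrenal gland, a difference of -6.05 ± 0.20 (adjusted p = 1.84e-08). Klhdc8a, a kelch domain protein, was at 4.67, 4.88 and 4.83 in mutALK tumours, against 11.16, 10.54 and 11.59 in adrenal gland, a difference of -6.30 ± 0.30 (adjusted p = 2.22e-07). That the groups are far apart in both genes follows from their choice by the gap. Adrenal 2 was the lowest adrenal array in both. Probe sets of a gene disagreed in size in part of these genes. Averaged over the probe sets of each gene, Dcx differed by 4.15, Bmpr1b by 4.68, Pou3f3 by 4.01, Creb5 by 2.22, Cyp11a1 by -4.15, Abcb1b by -4.22 and Mrap by -3.57, each in the same direction as with the brightest. Rec114, a gene known for meiotic recombination, was at 9.71, 9.48 and 9.01 in mutALK tumours, against 4.14, 4.57 and 3.95 in adrenal gland, a difference of 5.18 ± 0.19 (adjusted p = 3.87e-08), while 20 of the 25 measured germ cell genes were not called.

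**Figure D3:**
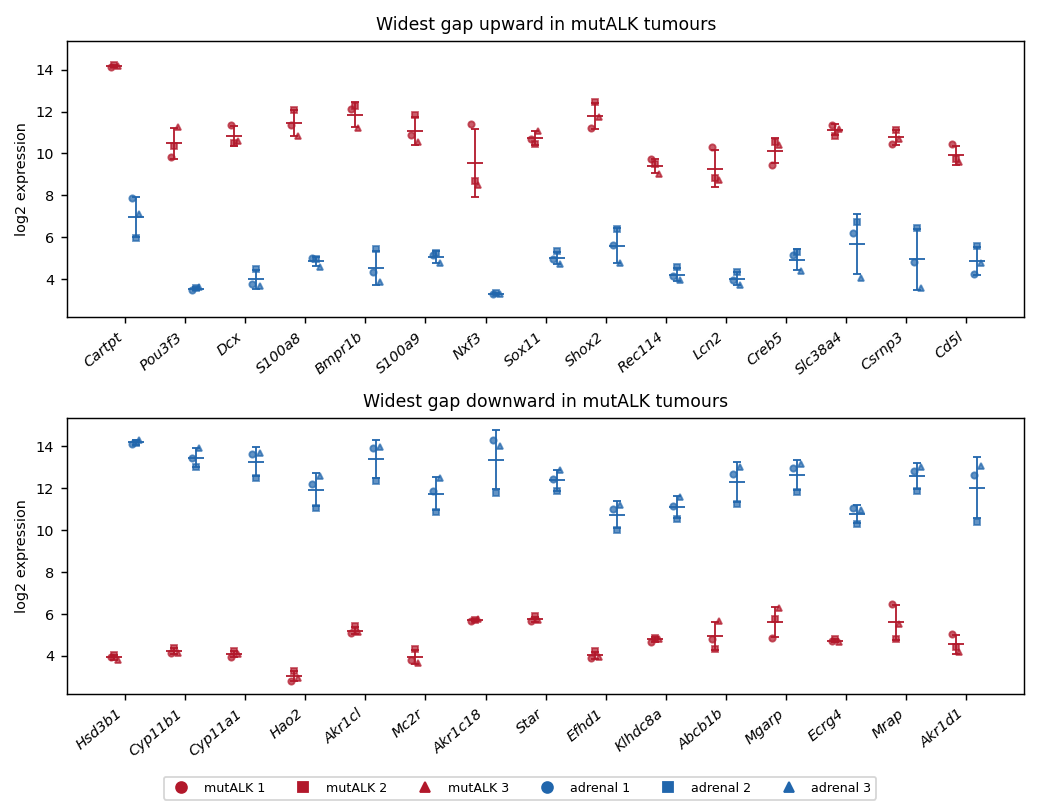
Log2 expression of the 15 genes with the widest gap upward (top) and the 15 with the widest gap downward (bottom) in the 3 mutALK arrays (red, left of each pair) and the 3 adrenal arrays (blue, right), with 1 marker shape for each replicate number and bars for mean ± SD. The groups are separate in each gene because the genes were chosen by the gap. Adrenal 2 (square) is the lowest adrenal array in most of the genes that fell, such as Akr1c18 at 11.76 beside 14.33 and 14.03.

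Genes of neurites and neuronal RNA handling rose nearly throughout. Of 26 growth cone and cytoskeleton genes 24 were called higher and 2 not called, with a median difference of 4.01. Of 18 RNA-binding proteins of neurons 17 were called higher, with a median of 2.46. Dcx, which steadies microtubules in migrating neurons, was at 11.37, 10.49 and 10.59 in mutALK tumours, against 3.79, 4.49 and 3.68 in adrenal gland, 114-fold higher. Nefm, a neurofilament subunit, was at 13.64, 13.68 and 13.74 in mutALK tumours, against 6.2, 11.11 and 5.62 in adrenal gland, a difference of 6.04 ± 1.05 (adjusted p = 0.000679). Gap43, of the growing axon tip, was at 13.29, 12.64 and 12.66 in mutALK tumours, against 4.72, 10.71 and 3.76 in adrenal gland, a difference of 6.46 ± 1.31 (adjusted p = 0.00195). Adrenal 2 stood between the tumours and the other adrenal arrays in Nefm and Gap43. Tubb3, the neuronal beta-tubulin, showed the same order at 12.27, 12.18 and 12.15 in mutALK tumours, against 4.47, 10.97 and 3.39 in adrenal gland. Elavl4, an RNA-stabilising protein of neurons, was at 11.74, 11.35 and 12.25 in mutALK tumours, against 6.38, 9.09 and 5.11 in adrenal gland, a difference of 4.92 ± 0.76 (adjusted p = 0.000303). Celf5, a splicing regulator, was at 9.87, 9.85 and 9.67 in mutALK tumours, against 4.55, 6.30 and 3.77 in adrenal gland, a difference of 4.93 ± 0.47 (adjusted p = 1.22e-05), and Rbfox1, another one, differed by 4.77 ± 0.74 (adjusted p = 0.000333). In all 3 the groups were separate, with adrenal 2 the highest adrenal array. In a fit of only the 6 compared arrays, the call was lost in Tubb3 (limma, adjusted p = 0.0612, range over the alternatives 1.03e-08 to 0.0612).

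Synaptic genes rose in smaller steps, channel genes were mixed, and transmitter receptors were called at about the background share or below it. Of 25 genes of synaptic vesicles and release 18 were called higher and 7 not called, with a median of 1.87. Syt11, a synaptotagmin, was at 12.32, 12.54 and 12.09 in mutALK tumours, against 8.31, 10.92 and 8.04 in adrenal gland, a difference of 3.23 ± 0.58 (adjusted p = 0.000927). Snap25, a SNARE of vesicle fusion, was at 12.36, 12.91 and 12.40 in mutALK tumours, against 9.64, 11.85 and 8.32 in adrenal gland, a difference of 2.62 ± 0.63 (adjusted p = 0.0056). Among 30 voltage-gated channels 13 were called higher (8 without adrenal 1) and 6 lower. The sodium channel Scn3a was at 10.34, 10.81 and 10.64 in mutALK tumours, against 6.55, 8.12 and 5.38 in adrenal gland, a difference of 3.91 ± 0.53 (adjusted p = 0.000127), and Scn2a differed by 3.94 ± 0.51 (adjusted p = 9.85e-05). Kcnk3, a background potassium channel known from cortex cells, ran the other way at 6.16, 6.70 and 6.39 in mutALK tumours, against 11.56, 11.31 and 12.11 in adrenal gland, a difference of -5.24 ± 0.23 (adjusted p = 1.81e-07). Thus sodium channels of neurons were high in the tumours and this potassium channel in the gland. Of 23 transmitter receptors 5 were called higher (21.7%, beside 21.3% of all genes) and 2 lower (8.70%, beside 21.0%). Without adrenal 2, 9 were called higher. Chrnb2, a nicotinic receptor subunit, was at 8.44, 8.48 and 7.94 in mutALK tumours, against 5.52, 6.39 and 5.04 in adrenal gland, a difference of 2.64 ± 0.32 (adjusted p = 5.75e-05). Gria3, an AMPA receptor subunit, differed by -2.43 ± 0.29 (adjusted p = 5.04e-05), and its relatives Gria2 and Gria4 by 3.19 ± 0.62 (adjusted p = 0.00148) and 2.71 ± 0.58 (adjusted p = 0.00283). Among 22 neural adhesion molecules 13 were called higher, with a median of 1.58. Ncam1 was at 12.59, 12.20 and 12.05 in mutALK tumours, against 8.66, 10.53 and 7.64 in adrenal gland, a difference of 3.34 ± 0.53 (adjusted p = 0.000382), and L1cam at 12.60, 12.10 and 12.21 in mutALK tumours, against 8.44, 11.47 and 7.56 in adrenal gland, a difference of 3.15 ± 0.78 (adjusted p = 0.00636). In L1cam adrenal 2 again lay close to the tumours. Averaged over the probe sets of each gene, the difference was 2.03 in Scn3a, -3.23 in Kcnk3, 1.21 in Chrnb2 and 1.60 in Ncam1. Fitted without the MYCN and double transgenic arrays, the call was lost in Snap25 (limma, adjusted p = 0.0617, range over the alternatives 7.75e-06 to 0.0617) and L1cam (limma, adjusted p = 0.0526, range over the alternatives 1.35e-05 to 0.0526). Leaving out mutALK 1, mutALK 3 and adrenal 2 together, with mutALK 2 the only tumour array left, gave 3.93 in Snap25.

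Catecholamine and peptide hormone genes did not move as a block. Of 13 genes for making and storing catecholamines 5 were called higher, 2 lower and 6 not called, with 3 called higher without mutALK 1, mutALK 2, adrenal 1 or adrenal 3. Slc18a2, the vesicle transporter that loads monoamines, was at 12.39, 12.64 and 12.23 in mutALK tumours, against 8.39, 11.10 and 7.0 in adrenal gland, a difference of 3.59 ± 0.79 (adjusted p = 0.00318). Ddc, which makes dopamine, was at 13.52, 13.32 and 13.11 in mutALK tumours, against 10.34, 12.52 and 9.21 in adrenal gland, a difference of 2.62 ± 0.59 (adjusted p = 0.00363). Th was not called at 1.17 ± 0.64 (adjusted p = 0.143) and was called without mutALK 3, its lowest tumour array, at 1.82. Pnmt differed by -1.68 ± 0.33 (adjusted p = 0.00148). The enzyme that makes adrenaline was therefore higher in the gland, while Slc18a2 and Ddc were higher in the tumours. Of 10 granins and prohormone processing genes 3 were called higher and 2 lower. Chga and Chgb, chromaffin granule proteins, differed by -0.37 ± 0.37 and -0.14 ± 0.68 and were not called (adjusted p = 0.588 and 0.825). Vgf, a secreted neuronal peptide precursor, was at 8.60, 10.49 and 9.93 in mutALK tumours, against 7.25, 8.22 and 6.25 in adrenal gland, a difference of 2.43 ± 0.64 (adjusted p = 0.00879). Pcsk1, a prohormone convertase, was at 4.90, 4.90 and 4.76 in mutALK tumours, against 7.61, 7.22 and 6.35 in adrenal gland, a difference of -2.20 ± 0.28 (adjusted p = 8.2e-05). Among 19 neuropeptide precursors 8 were called higher and 2 lower (1 lower without mutALK 1, mutALK 3, adrenal 1 or adrenal 2). Pnoc, the nociceptin precursor, was at 10.07, 9.97 and 9.58 in mutALK tumours, against 5.85, 5.59 and 5.54 in adrenal gland, a difference of 4.21 ± 0.40 (adjusted p = 1.15e-05). Vip, vasoactive intestinal peptide, was at 7.07, 12.56 and 10.42 in mutALK tumours, against 6.24, 5.03 and 4.86 in adrenal gland, a difference of 4.64 ± 1.24 (adjusted p = 0.0101), with mutALK 1 far below mutALK 2. Penk, the enkephalin precursor of the medulla, was at 4.74, 4.0 and 4.04 in mutALK tumours, against 8.12, 8.17 and 7.05 in adrenal gland, a difference of -3.52 ± 0.31 (adjusted p = 6.79e-06). The fit of the 6 arrays alone ended the call of Ddc (limma, adjusted p = 0.0505, range over the alternatives 1.98e-06 to 0.0505). Without the 3 arrays high in liver transcripts, mutALK 2 was the only tumour array left, and the difference was 3.74 in Vgf and 7.01 in Vip.

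Transcription factors of the sympathetic lineage rose and several Hox genes fell. Of 15 sympathoadrenal factors 10 were called higher and 5 not called, with a median of 2.0. Gata3, needed for sympathetic neurons, was at 11.38, 11.00 and 11.20 in mutALK tumours, against 7.52, 7.14 and 5.89 in adrenal gland, a difference of 4.34 ± 0.33 (adjusted p = 2.67e-06). Isl1, a LIM homeobox factor of the lineage, was at 12.82, 12.45 and 12.90 in mutALK tumours, against 8.20, 10.24 and 6.62 in adrenal gland, a difference of 4.37 ± 0.64 (adjusted p = 0.000224). Tfap2b, a neural crest factor, was at 12.18, 12.05 and 12.42 in mutALK tumours, against 7.92, 9.07 and 6.28 in adrenal gland, a difference of 4.46 ± 0.50 (adjusted p = 3.31e-05). In these 3 genes the lowest tumour array exceeded the highest adrenal array by more than 2 units. Phox2a and Hand2, which switch on noradrenergic genes, rose by 2.67 ± 0.65 and 2.38 ± 0.47. Insm1, a zinc finger factor of neuroendocrine cells, was at 8.15, 9.11 and 10.02 in mutALK tumours, against 7.21, 4.52 and 5.78 in adrenal gland, a difference of 3.25 ± 0.59 (adjusted p = 0.00091).

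Among 31 POU, LIM and other homeobox factors 9 were called higher and 3 lower, with the extremes far apart. Pou3f3, a POU factor of the developing brain, was at 9.81, 10.37 and 11.27 in mutALK tumours, against 3.47, 3.56 and 3.62 in adrenal gland, 122-fold higher. Shox2 was at 11.20, 12.44 and 11.75 in mutALK tumours, against 5.64, 6.40 and 4.75 in adrenal gland, 73.7-fold higher, and Onecut2 at 9.03, 7.78 and 8.79 in mutALK tumours, against 3.85, 4.24 and 4.81 in adrenal gland, 18.8-fold higher. Meis2, a TALE homeobox factor, was lower at 5.42, 5.55 and 5.06 in mutALK tumours, against 10.76, 9.77 and 11.06 in adrenal gland, a difference of -5.19 ± 1.04 (adjusted p = 0.00182), and Pbx3, its frequent partner, differed by -3.43 ± 0.52 (adjusted p = 0.000285). Of 33 Hox genes 14 were called lower and 1 higher, with a median of -0.56 (-0.16 without adrenal 2). Hoxb9 was at 5.17, 5.21 and 5.04 in mutALK tumours, against 10.58, 9.92 and 11.18 in adrenal gland, 42.8-fold lower in the tumours. Hoxc8 was at 4.84, 5.08 and 3.28 in mutALK tumours, against 9.78, 10.23 and 9.44 in adrenal gland, a difference of -5.42 ± 1.08 (adjusted p = 0.0017). Hoxb5 and Hoxb6 differed by -4.42 ± 0.32 (adjusted p = 2.11e-06) and -4.37 ± 0.35 (adjusted p = 4e-06). The 5 largest Hox differences, Hoxb2, Hoxb5, Hoxb6, Hoxb9 and Hoxc8, all ran downward. Among 19 SOX factors 3 were called higher and 6 lower. Sox11, of immature neurons, was at 10.68, 10.45 and 11.08 in mutALK tumours, against 4.98, 5.32 and 4.73 in adrenal gland, a difference of 5.73 ± 0.19 (adjusted p = 1.84e-08). Sox4, its close relative, was at 12.89, 13.01 and 13.10 in mutALK tumours, against 11.02, 10.73 and 10.95 in adrenal gland, a difference of 2.10 ± 0.12 (adjusted p = 6.53e-07). Sox17, a factor of vessel lining, was at 4.88, 6.05 and 5.48 in mutALK tumours, against 7.69, 8.11 and 7.65 in adrenal gland, a difference of -2.35 ± 0.39 (adjusted p = 0.000492). When probe sets were averaged, the difference was 1.40 in Sox4. With mutALK 1, mutALK 3 and adrenal 2 left out, mutALK 2 was the only tumour array, and the values were -4.53 in Hoxc8 and -1.62 in Sox17.

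Chromatin and growth regulators of embryonic tissue moved in both directions. Of 22 Polycomb and DNA methylation genes 10 were called higher and 4 lower, with a median of 0.51 (0.30 without adrenal 2). Tet1, which oxidises methylated cytosine, was at 8.84, 8.77 and 8.95 in mutALK tumours, against 5.70, 5.38 and 4.79 in adrenal gland, a difference of 3.56 ± 0.21 (adjusted p = 7.27e-07). Dnmt3a, a DNA methyltransferase, was at 10.75, 10.68 and 10.66 in mutALK tumours, against 8.92, 8.47 and 8.83 in adrenal gland, a difference of 1.96 ± 0.13 (adjusted p = 1.18e-06). Of 13 subunits of the BAF remodelling complexes 8 were called higher. Dpf1, a subunit of the neuronal form, was at 8.10, 7.75 and 7.94 in mutALK tumours, against 5.73, 5.91 and 5.81 in adrenal gland, a difference of 2.11 ± 0.15 (adjusted p = 1.57e-06), and Actl6b, another, differed by 1.58 ± 0.26 (adjusted p = 0.000471). Smarcc1, a core subunit, differed by 1.09 ± 0.14 (adjusted p = 9.99e-05). Lin28a, which blocks let-7 maturation, was at 6.51, 4.44 and 6.94 in mutALK tumours, against 3.16, 3.04 and 3.13 in adrenal gland, a difference of 2.85 ± 0.47 (adjusted p = 0.000498), with mutALK 2 the lowest tumour array. Among 18 imprinted genes 9 were called higher (4 without adrenal 3) and 3 lower. Nnat, a small membrane protein of brain and endocrine cells, was at 10.08, 9.77 and 10.21 in mutALK tumours, against 7.02, 6.91 and 5.69 in adrenal gland, a difference of 3.48 ± 0.37 (adjusted p = 2.27e-05). Cdkn1c, a growth-restraining cyclin kinase inhibitor, was at 9.40, 6.94 and 7.12 in mutALK tumours, against 11.54, 10.69 and 12.24 in adrenal gland, a difference of -3.67 ± 0.69 (adjusted p = 0.00116). Of 11 ganglioside synthesis genes 5 were called higher. St8sia1, the enzyme that makes GD3, the precursor of the neuroblastoma antigen GD2, was at 9.72, 9.88 and 9.48 in mutALK tumours, against 6.43, 8.85 and 5.18 in adrenal gland, a difference of 2.87 ± 0.73 (adjusted p = 0.00738). The average over a gene's probe sets gave a difference of 2.02 in Tet1, 1.48 in Lin28a and 1.5 in St8sia1. In a fit of only the 6 compared arrays, the call was lost in St8sia1 (limma, adjusted p = 0.0522, range over the alternatives 6.38e-05 to 0.0522). Leaving out mutALK 1, mutALK 3 and adrenal 2 together, with mutALK 2 the only tumour array left, gave 1.29 in Lin28a.

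Genes of the ALK family were called higher more often than lower, and other receptor tyrosine kinases lower more often than higher. Of 12 genes of the ALK family, its ligands and its phosphatases 5 were called higher and 2 lower. Ptn, pleiotrophin, a growth factor that binds receptor phosphatases of the nervous system, was at 9.64, 9.38 and 8.05 in mutALK tumours, against 10.94, 11.04 and 11.01 in adrenal gland, a difference of -1.97 ± 0.39 (adjusted p = 0.00156). Mdk, midkine, its relative, was at 7.11, 7.60 and 7.85 in mutALK tumours, against 5.91, 6.39 and 5.57 in adrenal gland, a difference of 1.56 ± 0.32 (adjusted p = 0.00227). The 2 related growth factors thus ran in opposite directions. Shc2, a neuronal adaptor, differed by 1.73 ± 0.17 (adjusted p = 1.21e-05). Ret, the receptor of GDNF family ligands, was at 11.33, 12.00 and 12.32 in mutALK tumours, against 6.10, 10.69 and 5.14 in adrenal gland, a difference of 4.57 ± 1.08 (adjusted p = 0.00491), with adrenal 2 more than 4 units above the other adrenal arrays. Of 9 RET and GDNF family genes 3 were called higher and 1 lower (0 lower without mutALK 1 or adrenal 3). The 3 were Ret, Gfra3 and Gfra4. Gfra4 differed by 0.63 ± 0.23 (adjusted p = 0.0488) and lost its call under 15 of the alternatives tried. Gfra3, a co-receptor of Ret, was at 9.04, 9.82 and 9.81 in mutALK tumours, against 6.57, 7.35 and 6.27 in adrenal gland, a difference of 2.83 ± 0.35 (adjusted p = 6.76e-05). Of 8 Trk receptors and neurotrophins 1 was called higher and 1 lower (2 lower without adrenal 3). Ntrk2, the BDNF receptor, differed by -2.28 ± 0.45 (adjusted p = 0.0017), and Bdnf itself was at 7.74, 7.93 and 7.79 in mutALK tumours, against 5.72, 5.70 and 5.76 in adrenal gland, a difference of 2.10 ± 0.33 (adjusted p = 0.000377). Among 34 other receptor tyrosine kinases 11 were called lower and 3 higher (1 higher without mutALK 2 or adrenal 3). Fgfr2 was at 5.77, 5.77 and 6.09 in mutALK tumours, against 10.63, 9.10 and 10.89 in adrenal gland, a difference of -4.33 ± 0.36 (adjusted p = 4.95e-06), and Pdgfra at 8.20, 6.49 and 7.45 in mutALK tumours, against 10.41, 9.73 and 10.44 in adrenal gland, a difference of -2.81 ± 0.50 (adjusted p = 0.000826). Epha7, an ephrin receptor, was at 9.11, 8.41 and 8.64 in mutALK tumours, against 6.45, 6.09 and 6.45 in adrenal gland, a difference of 2.38 ± 0.29 (adjusted p = 6.19e-05). Taken over all probe sets of the gene, the difference was 0.75 in Shc2, -0.50 in Ntrk2, which was then not called (limma, adjusted p = 0.189, range over the alternatives 0.000254 to 0.189), -2.47 in Fgfr2 and -1.38 in Pdgfra. Fitted without the MYCN and double transgenic arrays, the call was lost in Ret (limma, adjusted p = 0.0523, range over the alternatives 1.92e-06 to 0.0523). The same fit ended the call of Gfra4 (limma, adjusted p = 0.164, range over the alternatives 0.0097 to 0.189).

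Feedback and early response genes were split. Of 19 feedback genes of the RAS-MAPK pathway 7 were called higher (4 without mutALK 2, mutALK 3, adrenal 1 or adrenal 3) and 3 lower. Ccnd1, cyclin D1, a growth-signal target that drives entry into S phase, was at 13.15, 13.14 and 13.29 in mutALK tumours, against 10.94, 10.84 and 10.73 in adrenal gland, a difference of 2.36 ± 0.11 (adjusted p = 2.22e-07). Spred3, an inhibitor of the pathway, differed by 1.61 ± 0.34 (adjusted p = 0.00251), and Phlda1 by -2.72 ± 0.54 (adjusted p = 0.00171). Of 24 immediate early genes 14 were called lower and 1 higher, with a median of -1.35. Nr4a1, an orphan nuclear receptor that ACTH induces in the cortex, was at 8.02, 8.54 and 8.09 in mutALK tumours, against 12.76, 12.76 and 13.26 in adrenal gland, a difference of -4.71 ± 0.25 (adjusted p = 4.46e-07). Nr4a2 and Nr4a3 differed by -3.85 ± 0.20 (adjusted p = 3.78e-07) and -4.50 ± 0.25 (adjusted p = 5.58e-07). All 3 NR4A receptors were therefore lower, with no overlap between the groups. Fosl2 and Gadd45b differed by -3.96 ± 0.40 (adjusted p = 1.82e-05) and -3.82 ± 0.28 (adjusted p = 2.11e-06). Averaged over the probe sets of each gene, the difference was -2.21 in Nr4a2, -1.74 in Nr4a3 and -2.28 in Fosl2.

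Developmental signalling was lower for Wnt, BMP and Notch members as a count, with a few members far higher. Of 32 Wnt and R-spondin genes 19 were called lower and 3 higher, with a median of -1.11. Wnt4, which shapes the outer cortex, was at 6.29, 6.14 and 6.31 in mutALK tumours, against 11.07, 10.08 and 11.04 in adrenal gland, a difference of -4.48 ± 0.24 (adjusted p = 4.46e-07). Rspo3, made by the adrenal capsule, was at 3.60, 3.66 and 4.92 in mutALK tumours, against 8.78, 8.36 and 7.99 in adrenal gland, a difference of -4.32 ± 0.33 (adjusted p = 2.75e-06). Nkd1, a feedback target of the pathway, was at 5.41, 5.53 and 5.39 in mutALK tumours, against 8.15, 7.91 and 8.07 in adrenal gland, a difference of -2.60 ± 0.15 (adjusted p = 5.44e-07). The ligand, its amplifier and the target were each separate between the groups. Of 25 BMP and ID genes 13 were called lower and 3 higher, Bmpr1b among those higher. Id2 was at 9.64, 9.23 and 9.66 in mutALK tumours, against 12.52, 11.54 and 12.54 in adrenal gland, a difference of -2.69 ± 0.32 (adjusted p = 4.88e-05), and Smad6, an inhibitor of the pathway, differed by -2.86 ± 0.23 (adjusted p = 4.1e-06). Of 20 Notch genes 7 were called lower and 3 higher. Notch2 differed by -2.20 ± 0.38 (adjusted p = 0.000642), and Dner, a neuronal transmembrane ligand, was at 12.12, 12.27 and 11.68 in mutALK tumours, against 7.34, 10.65 and 6.57 in adrenal gland, a difference of 3.84 ± 0.95 (adjusted p = 0.00638). Of 28 axon guidance genes 12 were called higher and 6 lower. Dcc, the netrin receptor, was at 9.56, 9.98 and 8.67 in mutALK tumours, against 4.59, 6.37 and 3.63 in adrenal gland, a difference of 4.54 ± 0.66 (adjusted p = 0.0002), and Ntn1, netrin itself, differed by -2.18 ± 0.36 (adjusted p = 0.000479). Robo1, the SLIT receptor, was at 4.42, 6.5 and 5.71 in mutALK tumours, against 11.16, 9.84 and 11.60 in adrenal gland, a difference of -5.32 ± 0.71 (adjusted p = 0.000118), and Slit2 differed by 2.19 ± 0.48 (adjusted p = 0.00322). Receptor and ligand therefore ran in opposite directions in both pairs. When probe sets were averaged, the difference was -2.44 in Rspo3, -1.13 in Nkd1, -1.21 in Notch2, 2.80 in Dcc, -1.20 in Ntn1 and -2.08 in Robo1.

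Cell division genes rose almost without exception. Of 40 spindle and mitotic exit genes 37 were called higher, with a median of 2.48, and Pttg1, securin, named here because it was the 1 called lower, was at 10.70, 11.38 and 11.01 in mutALK tumours, against 12.26, 12.51 and 12.40 in adrenal gland. Of 24 centromere and kinetochore genes 22 were called higher, with a median of 2.02. Of 40 replication genes 36 were called higher, with a median of 1.5. In 23 genes of recombination and Fanconi repair 15 were called higher. Ube2c, which tags mitotic proteins for destruction, was at 11.65, 11.60 and 12.16 in mutALK tumours, against 7.94, 6.62 and 8.08 in adrenal gland, a difference of 4.26 ± 0.31 (adjusted p = 2.11e-06). Bub1, of the spindle checkpoint, was at 8.90, 9.05 and 9.77 in mutALK tumours, against 5.52, 4.66 and 5.99 in adrenal gland, a difference of 3.85 ± 0.32 (adjusted p = 5.23e-06). Kif11, the motor that separates spindle poles, was at 8.68, 8.18 and 9.63 in mutALK tumours, against 5.55, 4.96 and 5.86 in adrenal gland, a difference of 3.37 ± 0.34 (adjusted p = 1.59e-05). MutALK 3 was the highest tumour array and adrenal 2 the lowest adrenal array in each of these 3. Top2a, which untangles DNA, was at 10.68, 10.75 and 11.69 in mutALK tumours, against 7.77, 7.18 and 8.13 in adrenal gland, a difference of 3.35 ± 0.28 (adjusted p = 4.79e-06). Rrm2, which makes deoxynucleotides, was at 10.91, 11.45 and 12.68 in mutALK tumours, against 8.56, 8.06 and 8.98 in adrenal gland, a difference of 3.15 ± 0.37 (adjusted p = 4.83e-05). Exo1, a nuclease of repair, was at 6.95, 7.26 and 8.60 in mutALK tumours, against 4.42, 4.32 and 4.39 in adrenal gland, a difference of 3.22 ± 0.33 (adjusted p = 1.78e-05). The list mean of the spindle genes was 8.72, 8.75 and 9.57 in the mutALK arrays, against 6.75, 6.27 and 7.0 in the adrenal arrays. The average over a gene's probe sets gave a difference of 1.29 in Top2a and 2.03 in Exo1.

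Short motifs known from cell cycle control were more frequent in promoters of part of these lists than in those of all genes. The lists were not chosen by motif. These shares describe the lists and do not depend on the expression values. Windows of 250 bases before to 50 after the transcription start were read from RefSeq (mouse assembly GRCm38.p6) on both strands, 1 window for each gene. TTTGAA, the core of the cell cycle homology region bound by the DREAM and B-MYB complexes, was in 24 of 32 spindle promoters (75.0%), beside 1930 of 14453 promoters of all genes on the arrays (13.4%). Within 50 bases of the start it was in 22 of 32 (68.8%), beside 481 of 14453 (3.33%). CCAAT, the box bound by NF-Y, was in 22 of 32 (68.8%), beside 5521 of 14453 (38.2%). TTTGAA was in 8 of 23 kinetochore promoters (34.8%) and in 6 of 32 replication promoters (18.8%). The E2F motifs TTGGCGC or TTCGCGC were in 9 of 32 replication promoters (28.1%), beside 864 of 14453 (5.98%). They were in 1 of 23 kinetochore promoters (4.35%). Matches of different motifs can overlap, as where an E2F match runs into CCAAT. A match is a description of the sequence and not a binding site. The promoters of the 3 spindle genes with the largest differences among those that hold TTTGAA are shown 5' to 3' along the gene's strand, with matches of either motif, on either strand, in capitals.
Ube2c (chr2:164769679-164769978, plus strand): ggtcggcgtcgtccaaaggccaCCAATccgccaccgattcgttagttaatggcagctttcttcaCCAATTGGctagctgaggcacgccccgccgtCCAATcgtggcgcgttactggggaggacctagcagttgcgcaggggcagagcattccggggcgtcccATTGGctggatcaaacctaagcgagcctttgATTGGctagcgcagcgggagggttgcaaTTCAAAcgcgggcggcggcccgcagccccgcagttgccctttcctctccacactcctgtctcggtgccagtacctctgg
Kif11 (chr19:37376132-37376431, plus strand): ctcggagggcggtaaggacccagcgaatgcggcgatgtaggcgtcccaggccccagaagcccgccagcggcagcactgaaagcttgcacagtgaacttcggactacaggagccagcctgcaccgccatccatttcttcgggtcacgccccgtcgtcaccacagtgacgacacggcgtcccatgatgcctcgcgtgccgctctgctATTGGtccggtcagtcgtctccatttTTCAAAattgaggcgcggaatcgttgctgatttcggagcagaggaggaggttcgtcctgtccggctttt
Top2a (chr11:99024140-99024439, minus strand): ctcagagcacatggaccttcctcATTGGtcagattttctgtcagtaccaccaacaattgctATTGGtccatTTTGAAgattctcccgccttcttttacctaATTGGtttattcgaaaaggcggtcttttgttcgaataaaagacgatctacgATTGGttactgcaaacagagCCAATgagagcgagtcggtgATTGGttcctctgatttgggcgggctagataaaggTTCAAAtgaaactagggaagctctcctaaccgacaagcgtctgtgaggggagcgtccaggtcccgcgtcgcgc
Each of the 3 held TTTGAA, read on the opposite strand, within 50 bases before the start, with CCAAT boxes upstream of it. Top2a held another TTTGAA further upstream.

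The same windows are shown for 2 helicase subunits of origin licensing with several E2F matches, chosen after the sequences were read, with those matches in capitals.
Mcm6 (chr1:128359656-128359955, minus strand): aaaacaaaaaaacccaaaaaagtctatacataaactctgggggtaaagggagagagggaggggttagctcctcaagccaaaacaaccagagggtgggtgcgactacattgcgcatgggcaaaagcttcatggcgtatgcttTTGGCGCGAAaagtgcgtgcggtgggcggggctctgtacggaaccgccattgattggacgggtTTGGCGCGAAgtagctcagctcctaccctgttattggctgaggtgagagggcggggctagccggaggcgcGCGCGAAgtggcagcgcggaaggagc
Mcm5 (chr8:75109259-75109558, plus strand): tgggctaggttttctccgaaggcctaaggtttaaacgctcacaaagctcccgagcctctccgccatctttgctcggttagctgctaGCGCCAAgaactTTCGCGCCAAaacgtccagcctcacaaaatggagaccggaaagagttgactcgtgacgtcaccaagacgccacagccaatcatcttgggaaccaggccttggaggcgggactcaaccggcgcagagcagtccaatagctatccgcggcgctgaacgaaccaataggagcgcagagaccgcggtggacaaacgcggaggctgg
Mcm6 was at 10.30, 10.13 and 11.12 in mutALK tumours, against 9.0, 8.33 and 8.82 in adrenal gland, a difference of 1.80 ± 0.25 (adjusted p = 0.000135), and Mcm5 at 9.63, 9.52 and 10.85 in mutALK tumours, against 8.15, 7.39 and 8.22 in adrenal gland, a difference of 2.08 ± 0.32 (adjusted p = 0.000283). Overlapping matches on opposite strands form longer runs of capitals in both.

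**Figure D4:**
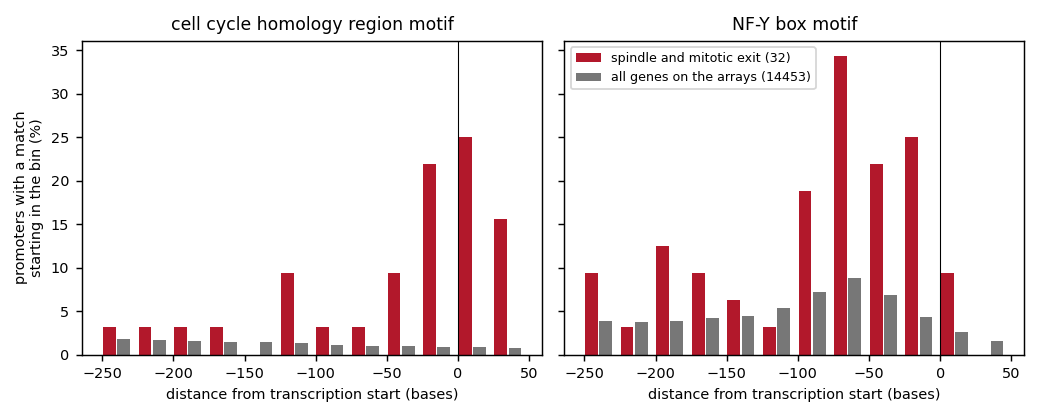
Share of promoters (%, vertical axis) with a match starting in each bin of 25 bases, by distance from the transcription start (horizontal axis, bases), for the cell cycle homology region motif (left) and the NF-Y box (right), with spindle and mitotic exit genes (red, 32 promoters) left of all genes on the arrays (grey, 14453). Red bars of the left panel are tallest from 25 bases before to 50 after the start, and those of the right panel lie mostly in the stretch just before it.

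Growth control genes around the cell cycle moved both ways. Of 28 genes of G1 control 16 were called higher and 7 lower. Cdkn2a, which encodes the tumour suppressors p16INK4a and p19ARF, was at 9.95, 9.80 and 9.92 in mutALK tumours, against 6.13, 5.36 and 6.54 in adrenal gland, a difference of 3.88 ± 0.82 (adjusted p = 0.00241). Ccnd2 and Ccnd3, the other D cyclins, were lower at 8.98, 8.44 and 7.96 in mutALK tumours, against 12.32, 11.30 and 12.26 in adrenal gland and at 7.24, 7.58 and 6.84 in mutALK tumours, against 10.97, 10.47 and 11.31 in adrenal gland, differences of -3.50 ± 0.53 (adjusted p = 0.000285) and -3.70 ± 0.24 (adjusted p = 1.08e-06). The 3 D cyclins thus split, with Ccnd1 high in the tumours and its 2 relatives high in the gland. Of 23 genes of the BCL2 family and p53 control 8 were called higher and 3 lower. Bbc3 and Pmaip1, p53 targets that promote cell death, differed by 2.04 ± 0.28 (adjusted p = 0.000141) and 2.51 ± 0.34 (adjusted p = 0.000125). Hrk, another death-promoting member, was at 7.49, 8.63 and 8.46 in mutALK tumours, against 6.5, 6.38 and 6.57 in adrenal gland, a difference of 1.71 ± 0.24 (adjusted p = 0.000181). Of 13 genes of the MAX network 8 were called higher and 4 lower. Mxd4, which opposes MYC, differed by -1.20 ± 0.19 (adjusted p = 0.000382), and Mlxipl, a glucose-sensing relative, by -3.58 ± 0.63 (adjusted p = 0.000762). Taken over all probe sets of the gene, the difference was -1.48 in Ccnd3. Without the 3 arrays high in liver transcripts, mutALK 2 was the only tumour array left, and the difference was 3.47 in Cdkn2a.

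Genes of ribosome assembly and ribosomal proteins were called higher more often than lower, in small steps, and nucleotide genes were called at about the background share in both directions. Of 34 ribosome biogenesis genes 15 were called higher and 2 lower, with a median of 0.46. Nolc1, a nucleolar chaperone, was at 9.54, 9.13 and 9.97 in mutALK tumours, against 8.25, 7.84 and 8.22 in adrenal gland, a difference of 1.45 ± 0.19 (adjusted p = 9.5e-05), and Nop56, of the methylation complex of ribosomal RNA, differed by 1.32 ± 0.18 (adjusted p = 0.000118). Of 25 ribosomal proteins 13 were called higher (6 without mutALK 3 and 7 without adrenal 2), with a median of 0.34. Of 23 nucleotide and one-carbon genes 6 were called higher and 5 lower (3 without adrenal 1). Mthfd2, the mitochondrial one-carbon enzyme of dividing cells, was at 9.91, 10.42 and 10.62 in mutALK tumours, against 8.82, 7.75 and 8.62 in adrenal gland, a difference of 1.92 ± 0.29 (adjusted p = 0.000283). Of 8 polyamine genes 3 were called higher, 1 lower (0 without mutALK 2, adrenal 1 or adrenal 3) and 4 not called. Sat1, which breaks down polyamines, was at 11.44, 11.50 and 11.85 in mutALK tumours, against 10.23, 9.87 and 10.17 in adrenal gland, a difference of 1.5 ± 0.24 (adjusted p = 0.000438). Srm, which makes spermidine, differed by 0.65 ± 0.15 (adjusted p = 0.00401). Averaged over the probe sets of each gene, the difference was 0.71 in Nolc1. With mutALK 1, mutALK 3 and adrenal 2 left out, mutALK 2 was the only tumour array, and the values were 0.90 in Nolc1 and 0.36 in Srm.

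Steroid synthesis was the other pole of the comparison. Of 16 steroid enzymes 13 were called lower and 3 not called, with a median of -5.22. Hsd3b1 was at 3.94, 4.04 and 3.80 in mutALK tumours, against 14.12, 14.15 and 14.33 in adrenal gland, a difference of -10.27 ± 1.14 (adjusted p = 3.23e-05). Cyp11a1, which cuts the cholesterol side chain, was at 3.94, 4.26 and 4.10 in mutALK tumours, against 13.64, 12.50 and 13.70 in adrenal gland, 579-fold lower. Cyp21a1, the 21-hydroxylase, was at 6.58, 6.43 and 6.71 in mutALK tumours, against 12.58, 11.83 and 13.24 in adrenal gland, 63.0-fold lower. The tumour arrays lay within 0.32 of each other in these 3 genes. Akr1d1, a steroid reductase, was at 5.06, 4.41 and 4.19 in mutALK tumours, against 12.65, 10.37 and 13.06 in adrenal gland, a difference of -7.47 ± 0.68 (adjusted p = 8.7e-06). Of 25 genes of the ACTH response and of cortex control 16 were called lower and 2 higher (1 higher without mutALK 2 or adrenal 2), with a median of -1.99. Mc2r, the ACTH receptor, was at 3.82, 4.34 and 3.68 in mutALK tumours, against 11.89, 10.89 and 12.47 in adrenal gland, a difference of -7.80 ± 0.38 (adjusted p = 2.57e-07), and Mrap, which carries it to the cell surface, at 6.49, 4.80 and 5.51 in mutALK tumours, against 12.84, 11.87 and 13.02 in adrenal gland, a difference of -6.97 ± 0.61 (adjusted p = 6.58e-06). Nr5a1, the factor that sets steroid cell identity, was at 5.45, 6.02 and 5.47 in mutALK tumours, against 10.66, 9.67 and 11.55 in adrenal gland, a difference of -4.98 ± 0.36 (adjusted p = 2.06e-06), and Nr0b1, its repressor, differed by -5.62 ± 0.46 (adjusted p = 4.1e-06). Of 27 ABC transporters 10 were called lower and 4 higher. Abcb1b, a drug and steroid exporter, was at 4.83, 4.33 and 5.65 in mutALK tumours, against 12.70, 11.23 and 13 in adrenal gland, a difference of -7.37 ± 0.67 (adjusted p = 8.95e-06). AAGGTCA, a motif that NR5A1 binds, was in 2 of 10 steroid enzyme promoters (20.0%), beside 556 of 14453 (3.85%). In promoters of the ACTH response and cortex genes it was in 1 of 18 (5.56%). Both counts are small. When probe sets were averaged, the difference was -2.61 in Nr5a1.

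Lipid handling and mitochondrial genes fell with them. Of 24 peroxisome and fatty acid oxidation genes 22 were called lower, with a median of -2.1. Hao2, a peroxisomal oxidase, was at 2.82, 3.30 and 2.97 in mutALK tumours, against 12.21, 11.04 and 12.57 in adrenal gland, a difference of -8.91 ± 0.91 (adjusted p = 1.91e-05). Pex11a, which divides peroxisomes, was at 6.46, 6.06 and 5.74 in mutALK tumours, against 10.03, 10.46 and 10.02 in adrenal gland, a difference of -4.08 ± 0.20 (adjusted p = 2.31e-07). Of 16 cholesterol uptake, storage and transfer genes 9 were called lower and 1 higher (2 higher without adrenal 2). Scarb1, which takes up HDL cholesterol, was at 8.20, 7.43 and 7.97 in mutALK tumours, against 13.22, 11.88 and 13.69 in adrenal gland, a difference of -5.06 ± 0.44 (adjusted p = 7.06e-06). Tspo, of the outer mitochondrial membrane, was at 9.11, 9.08 and 8.39 in mutALK tumours, against 11.97, 11.87 and 11.91 in adrenal gland, a difference of -3.05 ± 0.31 (adjusted p = 1.78e-05). Cholesterol synthesis itself changed less, with 5 of 18 genes called lower and a median of -0.16. Dhcr7, its last step, differed by -1.61 ± 0.32 (adjusted p = 0.00173). Of 26 glutathione and oxidative defence genes 17 were called lower, with a median of -1.33. Mgst2, a microsomal transferase, was at 5.84, 6.10 and 5.66 in mutALK tumours, against 12.26, 8.97 and 11.51 in adrenal gland, a difference of -5.05 ± 0.62 (adjusted p = 6.3e-05), and Gsta4 differed by -4.30 ± 0.46 (adjusted p = 2.73e-05). Of 35 oxidative phosphorylation genes 21 were called lower, with a median of -0.58 (-0.30 without adrenal 2). Sdha, of complex II, was at 10.95, 10.68 and 10.91 in mutALK tumours, against 12.17, 12.72 and 12.30 in adrenal gland, a difference of -1.55 ± 0.17 (adjusted p = 2.68e-05). Adrenal 2 was the highest array in Sdha. Of 30 glycolysis and hypoxia genes 7 were called lower (23.3%, beside 21.0% of all genes) and 5 higher (16.7%, beside 21.3%). Without adrenal 2, 9 were called higher. Epas1, which encodes the hypoxia factor HIF2A, was at 10.24, 10.10 and 9.44 in mutALK tumours, against 12.19, 12.42 and 12.25 in adrenal gland, a difference of -2.36 ± 0.30 (adjusted p = 7.5e-05), and Slc2a3, a glucose transporter of neurons, at 12.28, 12.22 and 11.82 in mutALK tumours, against 8.69, 11.38 and 7.72 in adrenal gland, a difference of 2.84 ± 0.70 (adjusted p = 0.00621). Ankrd37, a hypoxia target, differed by 3.69 ± 0.44 (adjusted p = 5.36e-05). Fat cell genes moved with these lists, with 11 of 13 called lower and a median of -4.36. Adipoq, adiponectin, was at 9.33, 3.49 and 3.74 in mutALK tumours, against 13.33, 13.59 and 12.17 in adrenal gland, and Ucp1, of brown fat, at 4.77, 5.11 and 5.13 in mutALK tumours, against 9.37, 13.55 and 12.00 in adrenal gland, a difference of -6.64 ± 1.01 (adjusted p = 0.00029). The part of fat in the lipid and mitochondrial differences was not tested. The average over a gene's probe sets gave a difference of -0.99 in Sdha. The fit of the 6 arrays alone ended the call of Slc2a3 (limma, adjusted p = 0.0568, range over the alternatives 7.78e-06 to 0.0568).

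**Figure D5:**
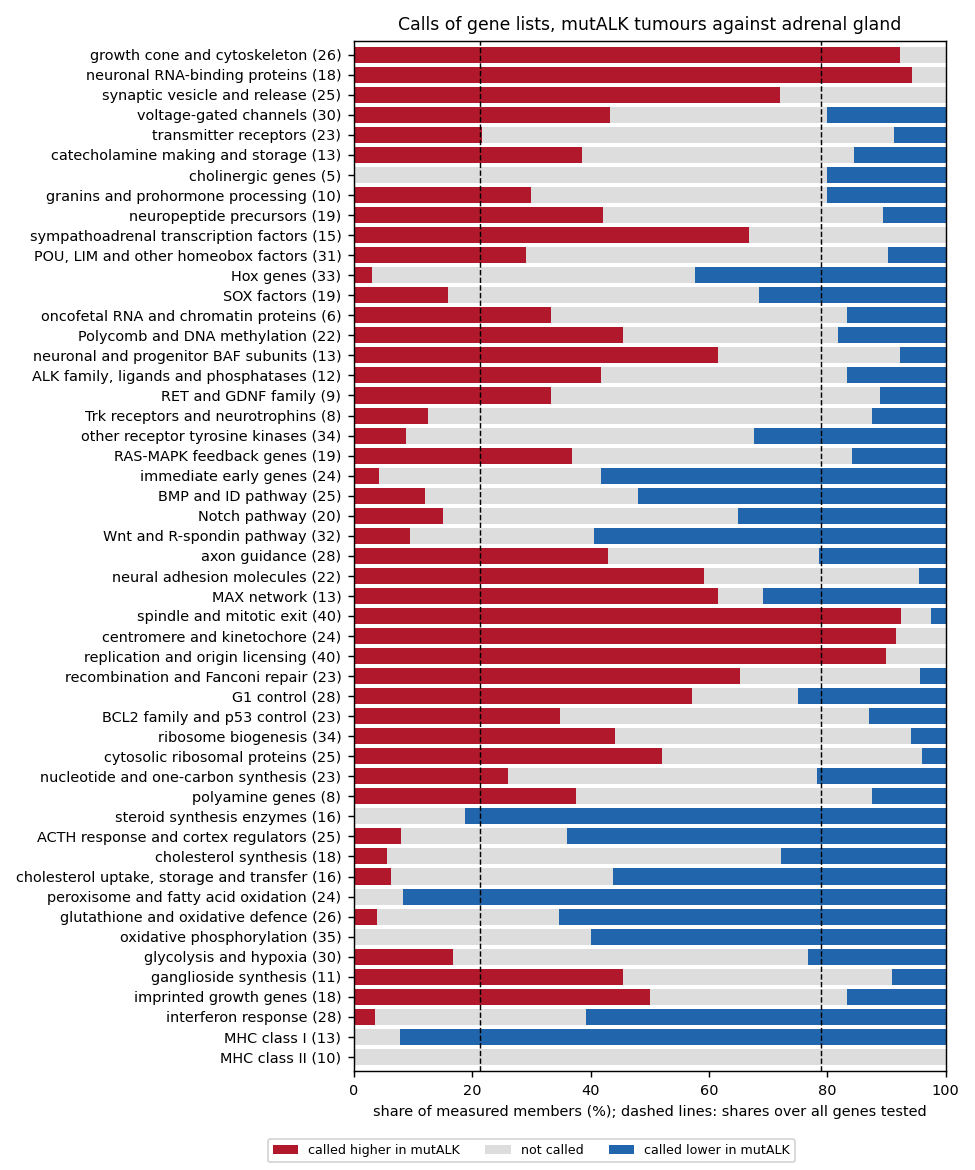
Share of measured members (%, number in brackets) of each list called higher (red), not called (grey) and called lower (blue) in mutALK tumours against adrenal gland. Dashed lines mark the shares over all 18194 genes, 21.3% higher from the left and 21.0% lower from the right. Red spans at least 91.7% of the growth cone, neuronal RNA-binding, spindle and kinetochore lists, and blue at least 91.7% of the peroxisome and MHC class I lists.

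Immune genes differed by cell type. Of 18 neutrophil genes 12 were called higher and 6 not called, with a median of 1.41 (0.69 without mutALK 2). S100a8, a calcium-binding protein of neutrophils, was at 11.38, 12.08 and 10.85 in mutALK tumours, against 5.0, 4.96 and 4.60 in adrenal gland, 95.8-fold higher. Lcn2, which starves bacteria of iron, was at 10.30, 8.82 and 8.71 in mutALK tumours, against 3.96, 4.34 and 3.74 in adrenal gland, a difference of 5.26 ± 0.67 (adjusted p = 8.82e-05). Ngp, of neutrophil granules, was at 6.92, 10.33 and 7.60 in mutALK tumours, against 4.26, 4.96 and 4.87 in adrenal gland, a difference of 3.58 ± 0.68 (adjusted p = 0.00122), with mutALK 2 highest. Of 23 macrophage genes 7 were called higher (4 without mutALK 1 or adrenal 2). Cd5l was at 10.43, 9.74 and 9.58 in mutALK tumours, against 4.25, 5.57 and 4.76 in adrenal gland, a difference of 5.05 ± 0.45 (adjusted p = 7.68e-06). In the 17 T and NK cell and 13 B cell genes limma called 0, and 0 passed an unadjusted p under 0.05, while without mutALK 1 it called 2 T and NK cell genes lower. Of 17 erythroid genes 2 were called higher (10 without mutALK 1), the array with the lowest erythroid mean of the tumours. Megakaryocyte and platelet genes were called higher in 2 of 9 (22.2%, beside 21.3% of all genes), with a median of 0.36. Ppbp, a platelet chemokine, was at 6.81, 6.73 and 7.10 in mutALK tumours, against 4.56, 4.38 and 4.86 in adrenal gland, a difference of 2.28 ± 0.20 (adjusted p = 8.23e-06). Leaving out mutALK 1, mutALK 3 and adrenal 2 together gave 5.76 in Ngp, with mutALK 2, its highest array, the only tumour array left.

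MHC class I and interferon response genes fell, with the smallest distance from the gland in mutALK 1, and MHC class II genes were not called. Of 13 MHC class I genes 12 were called lower, with a median of -1.59 and list means of 9.23, 8.05 and 7.62 in the mutALK arrays, against 10.01, 9.90 and 9.89 in the adrenal arrays. Tap2, which carries peptides into the endoplasmic reticulum, was at 7.65, 6.48 and 6.2 in mutALK tumours, against 8.67, 8.80 and 8.68 in adrenal gland, a difference of -1.94 ± 0.31 (adjusted p = 0.00037). Erap1, which trims those peptides, was at 5.76, 5.42 and 4.73 in mutALK tumours, against 8.24, 7.87 and 8.35 in adrenal gland, a difference of -2.85 ± 0.32 (adjusted p = 3.26e-05). Of 28 interferon response genes 17 were called lower (10 without mutALK 3), with a median of -1.37. Ddx58, the RNA sensor RIG-I, was at 6.73, 6.00 and 5.48 in mutALK tumours, against 8.61, 7.67 and 9.29 in adrenal gland, a difference of -2.45 ± 0.37 (adjusted p = 0.000288). Of 10 MHC class II genes, with list means of 8.02, 6.39 and 6.52 in the mutALK arrays, against 7.78, 7.67 and 7.43 in the adrenal arrays, limma called 0, with 1 higher and 4 lower at an unadjusted p under 0.05 and 5 called lower without mutALK 1. Macrophage genes, which averaged 9.33 in mutALK 1 beside 8.34 and 8.29 in the other tumours, were high in the same array. Their part in these results was not tested.

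Vessel and basement membrane genes fell, while fibroblast genes were called less often than all genes in both directions. Of 23 endothelial genes 22 were called lower, with a median of -1.48 and list means of 6.56, 7.36 and 7.16 in the mutALK arrays, against 8.85, 8.88 and 8.71 in the adrenal arrays. Tek, the angiopoietin receptor, was at 5.58, 5.51 and 5.40 in mutALK tumours, against 9.35, 8.86 and 9.52 in adrenal gland, a difference of -3.74 ± 0.44 (adjusted p = 5.07e-05). Kdr, the VEGF receptor, was at 7.30, 7.51 and 7.53 in mutALK tumours, against 10.12, 10.20 and 10.14 in adrenal gland, a difference of -2.71 ± 0.27 (adjusted p = 1.72e-05). No count is given without mutALK 1, mutALK 3 and adrenal 2, the arrays with high liver transcripts, because mutALK 2 was then the only tumour array. Of 21 basement membrane genes 12 were called lower, and Lama4, a laminin of vessels, was at 7.73, 8.15 and 7.48 in mutALK tumours, against 9.52, 9.37 and 9.68 in adrenal gland, a difference of -1.73 ± 0.27 (adjusted p = 0.000366). Of 23 fibroblast genes 4 were called lower (17.4%, beside 21.0% of all genes) and 2 higher (8.70%, beside 21.3%). Without adrenal 2, 8 were called higher, and without double transgenic 1, 4 were. Col6a1 was at 7.89, 8.50 and 8.67 in mutALK tumours, against 11.23, 10.24 and 11.55 in adrenal gland, a difference of -2.65 ± 0.40 (adjusted p = 0.000259), and Fbln1, a matrix glycoprotein, at 9.07, 8.58 and 9.29 in mutALK tumours, against 7.27, 7.29 and 6.58 in adrenal gland, a difference of 1.93 ± 0.22 (adjusted p = 3.36e-05). Of 15 mural and smooth muscle genes 4 were called lower (2 without mutALK 1, adrenal 2 or double transgenic 3). Liver genes were not called, with 1 of 23 lower at an unadjusted p under 0.05, and the 18 skeletal muscle genes gave 0 calls by limma and 0 at that p. Taken over all probe sets of the gene, the difference was 0.99 in Fbln1.

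Against the other tumours, mutALK tumours differed in 5603 genes from MYCN tumours (30.8%; 2478 higher, 13.6%, and 3125 lower, 17.2%) and in 2624 from double transgenic tumours (14.4%; 1098 higher, 6.03%, and 1526 lower, 8.39%). Genes called higher in mutALK than in all 3 other groups numbered 283 (1.56%) and lower 234 (1.29%). These comparisons share the mutALK arrays, so their calls are not independent. The count against double transgenic tumours was 1006 without double transgenic 2, 1145 without mutALK 2 and 1497 without mutALK 1.

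Neutrophil genes set mutALK tumours apart from every other group. S100a9, the partner of S100a8, was at 10.88, 11.83 and 10.55 in mutALK tumours, against 5.15, 5.27 and 4.75 in adrenal gland, and exceeded MYCN tumours by 6.24 ± 0.40 (adjusted p = 8.09e-06) and double transgenic tumours by 6.14 ± 0.42 (adjusted p = 0.000108). Chil3, a chitinase-like protein of myeloid cells, exceeded MYCN tumours by 5.69 ± 0.57 (adjusted p = 5.19e-05) and double transgenic tumours by 5.92 ± 0.61 (adjusted p = 0.000565). Of the 18 neutrophil genes 14 were called higher than in MYCN and 13 higher than in double transgenic tumours. Tll2 and Nwd2, with Slc4a1, the anion exchanger of red cells, were also among the 8 genes with the largest smallest difference over the 3 comparisons. Tll2, a metalloprotease related to BMP1, was at 8.81, 6.74 and 7.26 in mutALK tumours, against 3.78, 5.35 and 3.78 in adrenal gland, a difference of 3.30 ± 0.53 (adjusted p = 0.000424), and exceeded MYCN tumours by 3.87 ± 0.50 (adjusted p = 0.000209). Slc4a1 was at 5.80, 11.07 and 8.44 in mutALK tumours, against 5.0, 4.58 and 4.30 in adrenal gland, and its difference of 3.81 ± 0.96 was 2.49 without mutALK 2. The 8 genes lowest by the same rule were Slc35d3, Spint2, Caln1, St18, Grasp, Peli2, Cacnb2 and Gsto1, of which St18 lost its call against adrenal gland without mutALK 1, mutALK 2, mutALK 3, adrenal 1 or adrenal 3, where it differed by -2.25, -2.24, -2.35, -1.39 and -2.11. Spint2, an inhibitor of serine proteases, was at 6.71, 5.91 and 6.68 in mutALK tumours, against 9.59, 9.05 and 9.72 in adrenal gland, a difference of -3.02 ± 0.24 (adjusted p = 3.42e-06), and mutALK minus MYCN was -2.81 ± 0.22 (adjusted p = 2.13e-05). Gsto1, a glutathione transferase, was at 8.08, 8.97 and 9.78 in mutALK tumours, against 10.83, 11.28 and 10.90 in adrenal gland, a difference of -2.06 ± 0.40 (adjusted p = 0.00158). Averaged over the probe sets of each gene, the difference was 2.14 in Slc4a1. In a fit of only the 6 compared arrays, the call was lost in Slc4a1 (limma, adjusted p = 0.0629, range over the alternatives 8.49e-05 to 0.0629). Without the 3 arrays high in liver transcripts, the difference was 6.42 in Slc4a1, with mutALK 2, its highest array, the only tumour array left.

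Lists that stood far from the adrenal gland kept different distances from the other tumours. Spindle genes, 37 of 40 above the gland, were called lower in mutALK than in MYCN tumours in 38 of 40, with a median of -1.55, and lower than in double transgenic tumours in 30, with a median of -1.1. Ribosome biogenesis genes were called lower than in MYCN tumours in 33 of 34, with a median of -1.04. For Bub1, mutALK minus MYCN was -1.81 ± 0.30 (adjusted p = 0.00102). The 16 steroid enzymes had median differences of 0.07 against MYCN tumours and -0.34 against double transgenic tumours, with 0 called in either comparison. Double transgenic 1 stood above double transgenic 2 and 3 in Hsd3b1, at 9.43, 3.59 and 3.89, and in Cyp11a1, at 6.27, 3.71 and 4.28. Its part in the median was not tested. Endothelial genes were called higher than in double transgenic tumours in 14 of 23, with a median of 1.27, and had a median of -0.23 against MYCN tumours. Prph, peripherin, a neurofilament protein of peripheral neurons named here after its values were seen, was at 13.02, 12.67 and 12.69 in mutALK tumours, against 5.36, 11.95 and 5.01 in adrenal gland, and exceeded MYCN tumours by 8.69 ± 1.31 (adjusted p = 0.000551).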

How the data were processed

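RNA of 13 samples was read on Affymetrix mouse arrays, and the deposited log2 values were made by the authors with RMA in Partek, per the submitters' processing notes; versions are not stated there. Values ran between 2.04 and 14.5, with array medians of 5.8 to 5.9. Of 45101 probe sets, 34958 had 1 gene symbol in the platform annotation, 932 several and 9211 none, and the brightest probe set stood for each of 18194 genes. limma 3.58.1 (lmFit and eBayes, R 4.3.3) was fitted to all 13 arrays with 1 mean for each group, leaving 9 residual and 2.28 prior degrees of freedom, and tested on simulated data. Groups came from the genotype labels. The small number of arrays limits the precision. The comparison, 71 gene lists (1421 of 1564 symbols measured) and the rule for named genes were chosen with earlier results of these data known. Named were Mycn and Alk, the 15 widest gaps each way, up to 5 called members of each list by size, the 8 genes most distant from all 3 other groups each way, the 5 genes of widest range within each group and tissue markers. Other normalization, probe set, filter, variance and sample choices were tried. Promoters were from RefSeq, GRCm38.p6, 250 bases before to 50 after the start.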

Additional observations from a re-analysis of the deposited data

Results flagged for a closer look

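The effect against adrenal gland differed between mutALK and MYCN tumours, by the limma contrast of the 2 tumour groups, in genes named above. The larger effect was that of mutALK tumours, by 6.87 log2 units, in S100a8, 6.24 in S100a9, 5.69 in Chil3, 5.13 in Lcn2 and 3.51 in Ngp, all genes of neutrophils or myeloid cells, and by 3.82 in the red cell gene Slc4a1. It was higher by 5.68 in Mycn, 5.48 in Bmpr1b, 4.60 in Cartpt, 3.87 in Tll2, 3.64 in Pou3f3, 3.63 in Nwd2, 2.26 in Shox2 and 1.47 in Csrnp3. The mutALK minus MYCN difference was -7.57 in St18, -3.29 in Peli2, -2.97 in Caln1, -2.96 in Slc35d3, -2.81 in Spint2, -2.75 in Grasp, -2.09 in Gsto1, -1.73 in Cacnb2, -1.12 in Rec114 and -0.78 in Sox11. These comparisons share the mutALK arrays. In Gsto1, 1 of the 4 MYCN arrays stood apart, with 0.925 of the group's range between it and the nearest other array. The limit used for such gaps is one that chance passes in about 1 of 20 groups. It was applied to Mycn, Alk and the 8 genes most distant from all 3 other groups each way, and Gsto1 alone passed it. The 10092 probe sets without a single gene name were used in no comparison above. Between mutALK tumours and adrenal gland 1790 of them were called, 855 higher and 935 lower in the tumours.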

How the results depend on the processing

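The counts of genes called against adrenal gland kept within 1.5 times of the main count under all alternatives but 1. When each probe set was tested by itself, 13456 were called, 6990 higher and 6466 lower, 7261 of them at least 2-fold, with 9791 called against MYCN and 4931 against double transgenic tumours, where more features were tested. Leaving out 1 array at a time gave 6880 to 7791 genes called, 3403 to 3873 higher, 3369 to 3931 lower and 4016 to 4410 at least 2-fold, and 4264 to 6540 against MYCN and 1006 to 3659 against double transgenic tumours. With arrays that share a title number averaged, 1624 genes were called against double transgenic tumours, with fewer arrays. No named gene that was called changed direction under any of 24 alternatives, and 235 of 316 called named genes were called under all of them where tested. With the 6 mutALK and adrenal arrays alone 45 named genes lost their call, with the Xist level as a covariate 11 and with the mean of all probe sets 13. That mean made the difference of 77 smaller by over 1.5 times. The fit without mutALK 1, mutALK 3 and adrenal 2 is among the 24 alternatives. It held mutALK 2 as its only tumour array, so only its effect sizes are given above. List counts changed in 292 of 3406 cases by over 1.5 times, the cause not tested. No paired analysis was possible because the labels do not tie arrays of the mutALK and adrenal groups to each other. Dim probe sets bound the differences that can be seen.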
